A study of Caenorhabditis elegans with 6 samples.

Results

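Aquaporins are channel proteins that let water, and in some members glycerol, cross cell membranes down their gradients. Each protein of the membrane tetramer carries its own pore. In C. elegans they have been placed mainly in the excretory canal cell, which expels water from the body, in the intestine, which takes up water and solutes, and in the epidermis. The worm also makes and stores glycerol when its surroundings are hypertonic, so channels that pass glycerol bear on the same physiology.

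The 8 aquaporin genes described here, aqp-1, aqp-2, aqp-3, aqp-4, aqp-7, aqp-8, aqp-10 and aqp-11, were chosen by gene name from the 16391 rows of the table. They are 8 of 12 rows with an aqp symbol. Their values were not used in the choice, but earlier results of these data were known when it was made. RNA was sequenced from intact animals of the wild-type Bristol strain N2 at the L4 larval stage and fed E. coli OP50, giving 3 libraries of a 25°C culture temperature and 3 of a 15°C culture temperature. By the study's methods the worms were progeny of parents moved to each temperature, with egg laying begun earlier at 15°C to match development, whereas the sample records describe culture from synchronized L1 larvae. Nothing states that the 3 libraries of a temperature came from separate cultures, so p-values measure the spread between these libraries, which may be technical.

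No aquaporin gene passed both thresholds that the study set for a temperature-regulated gene, a fold change above 2 and an adjusted p under 0.01. Here these thresholds were applied to limma, whereas the study used the Cufflinks tools, and its own list of regulated genes is not compared here. aqp-4, a water channel of the intestine, came closest. It was higher at 25°C, with a log2 fold change of 0.98 and an adjusted p of 0.0091 from limma (standard error 0.20), just under the fold threshold. The fold threshold was passed when the libraries were rescaled, but the adjusted p of aqp-4 exceeded 0.01 whichever single library was left out. aqp-10 was higher by 0.55 with an adjusted p of 0.012 from limma, and aqp-8, a channel of the excretory canal, was lower by a log2 fold change of -0.77 with an adjusted p of 0.065. Of the 7 tested aquaporin genes, 3 lay above 0 and 4 below, a split near that of all tested genes, of which 48.2% lay above 0. None of the 4 lower genes had an adjusted p under 0.05 from limma, so movement in opposite directions was not established.

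Levels are FPKM, read fragments scaled by transcript length and by the mapped fragments of the library, which can be set side by side between genes because they are relative to length. Fold changes are of 25°C over 15°C on the scale log2(FPKM + 0.5), which understates those of genes with low values. The 12996 genes that averaged 1 FPKM or more across the 6 libraries were tested with limma with Benjamini-Hochberg adjustment, and 7 of the 8 aquaporin genes passed this filter. The sequencing depth is unknown, and precision rests on the 3 libraries of each temperature. FPKM summed to between 2663992 and 2776526 in the 25°C libraries and between 2865856 and 3313082 in the 15°C libraries, with 15187 to 15255 and 15007 to 15239 genes above 0. A library's mean correlation with the others of its temperature over log2 values of the tested genes was 0.972 to 0.974 at 25°C and 0.957 to 0.961 at 15°C. In whole worms, fewer cells of a type and less RNA per cell cannot be told apart.

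**Figure D1:**
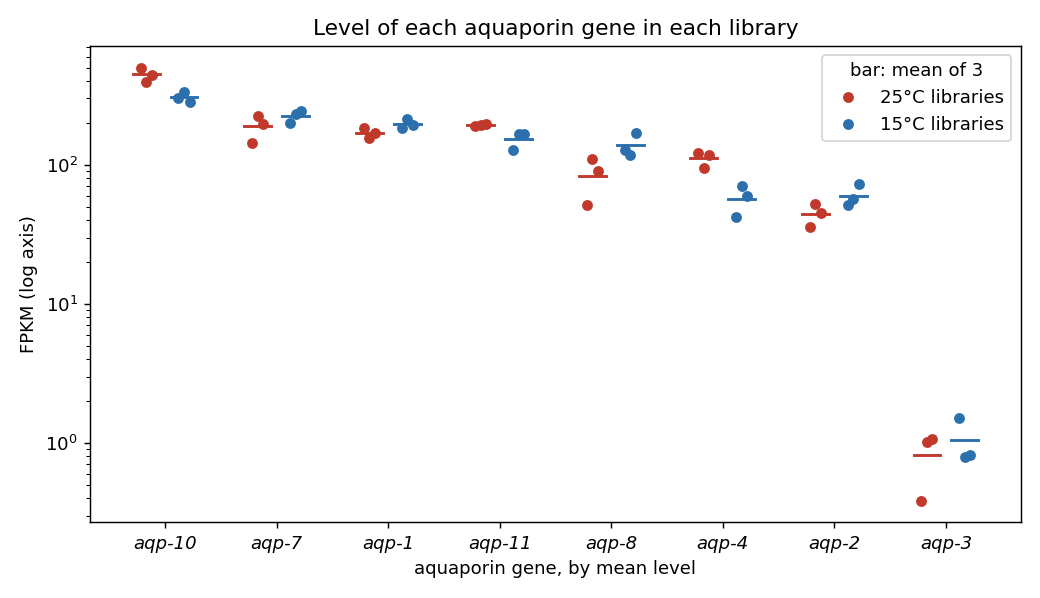
FPKM (log axis) of each aquaporin gene in the 3 libraries at 25°C (red) and the 3 at 15°C (blue), with a bar at the mean of 3. aqp-10 is highest at both temperatures, with means of 447 FPKM at 25°C and 305 FPKM at 15°C, and aqp-3 lies near 1 FPKM.

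Among the intestinal channels, aqp-4 was listed at 121, 95.2 and 118 FPKM in the 25°C libraries, against 42.2, 70.2 and 59.3 FPKM in the 15°C libraries. All libraries at 25°C were above all at 15°C. The 25°C mean of 112 ± 14.2 FPKM, against 57.2 ± 14.1 FPKM for 15°C (SD, n = 3 each), gave a ratio of 1.95, and the 95% interval of the log2 fold change ran from 0.51 to 1.45, across the 2-fold threshold. The gene lies on chromosome V of WBcel235 from 9737556 to 9739740 on the plus strand, and 39 of its bases overlap marc-1 on the same strand, where reads cannot be assigned by strand. Leaving out 15°C replicate 1, the lowest library, brought the log2 fold change to 0.78 (adjusted p = 0.019 from limma).

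aqp-1, a glycerol channel of the intestine that is known as a target of the insulin-regulated factor DAF-16, had 183, 156 and 170 FPKM at 25°C and 184, 214 and 194 FPKM at 15°C. The 25°C libraries were all the lower, but the highest of them lay only just under the lowest at 15°C. The log2 fold change was -0.22 (95% interval -0.48 to 0.045, adjusted p = 0.16 from limma), so a 2-fold difference in either direction lay outside the interval. aqp-1 is on chromosome II from 7235828 to 7238349 on the minus strand, with 93 bases that overlap ctsa-3.1 on the opposite strand.

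Among the channels placed in the excretory cell, aqp-8 was listed at 51.6, 110 and 89.5 FPKM at 25°C, against 128, 118 and 171 FPKM at 15°C, with no overlap between the temperatures. The 25°C mean was 83.6 ± 29.5 FPKM and the 15°C mean 139 ± 28.2 FPKM (SD, n = 3 each), a ratio of 0.603. The 95% interval of its log2 fold change ran from -1.44 to -0.11, so that a 2-fold reduction was neither shown nor outside the interval. Its within-temperature SD of 0.44 on the log2 scale was larger than that of 88.2% of all tested genes, whose median was 0.22. Without 25°C replicate 1 its log2 fold change was -0.46, and without 25°C replicate 2 it was -1.0 (adjusted p = 0.031 from limma). aqp-8 is on chromosome X from 4702167 to 4704977 on the minus strand, with 5 annotated coding transcripts, and no other annotated gene overlaps it.

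aqp-2 had 35.8, 51.9 and 45.2 FPKM at 25°C and 51.1, 56.4 and 72.3 FPKM at 15°C. The highest library at 25°C exceeded the lowest at 15°C. Its log2 fold change was -0.43 (95% interval -0.87 to 0.0050, adjusted p = 0.10 from limma). aqp-3, an aquaglyceroporin whose product passes both water and glycerol, was near the floor of the table, with 0.385, 1.02 and 1.07 FPKM at 25°C and 1.51, 0.794 and 0.825 FPKM at 15°C. Its values overlapped, its mean of 0.933 FPKM fell below the filter, and it was not tested. The genes lie on chromosome II from 9259048 to 9261981 and on chromosome IV from 10961229 to 10966459, both on the minus strand.

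aqp-7, also an aquaglyceroporin, is on chromosome X from 3025063 to 3026974 on the plus strand. It had 144, 225 and 197 FPKM at 25°C, against 200, 232 and 244 FPKM at 15°C, and the temperatures overlapped. The log2 fold change was -0.28 (95% interval -0.70 to 0.14, adjusted p = 0.25 from limma). Without 25°C replicate 1, the lowest library, it was -0.093.

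aqp-10 and aqp-11 belong to the divergent branch of the family that includes the superaquaporins of mammals. aqp-10, on chromosome II from 9768458 to 9769847 on the minus strand, had the highest FPKM of the 8 at both temperatures. It was listed at 500.1, 396 and 445 FPKM at 25°C, against 300.0, 331 and 284 FPKM at 15°C, and every 25°C library lay above every 15°C library. The 25°C mean of 447 ± 52.3 FPKM and the 15°C mean of 305 ± 24.1 FPKM (SD, n = 3 each) differed by a ratio of 1.47. For the values as deposited, the 95% interval of the log2 fold change, 0.26 to 0.83, lay below the 2-fold threshold throughout. aqp-11, on chromosome III from 13673280 to 13674739 on the plus strand, had 191, 192 and 195 FPKM at 25°C and 129, 166 and 167 FPKM at 15°C. The 25°C libraries were again all higher and lay close together. The log2 fold change was 0.34 (95% interval 0.035 to 0.64, adjusted p = 0.074 from limma).

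**Figure D2:**
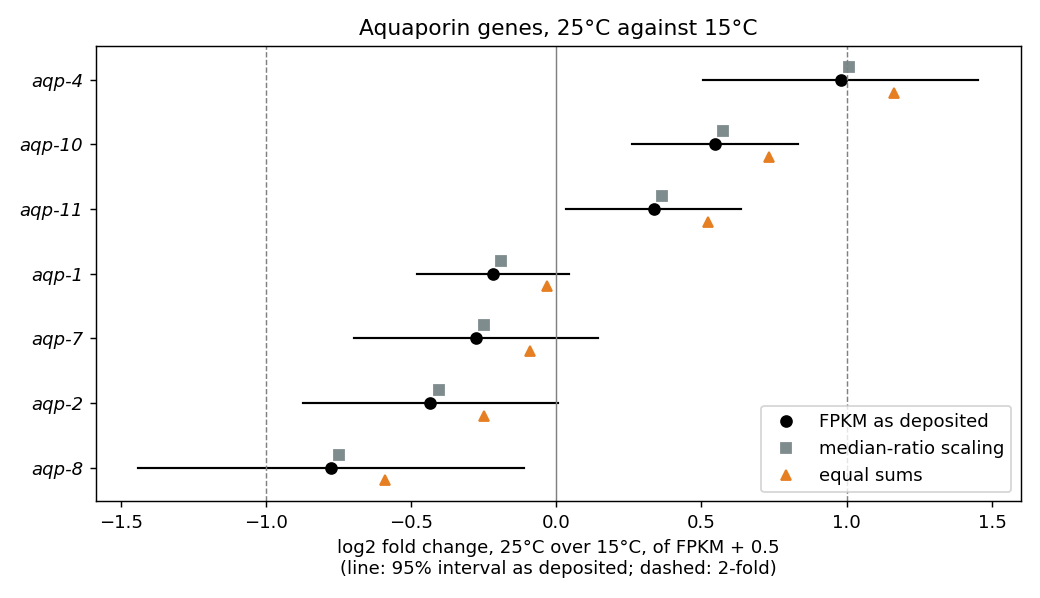
Log2 fold change, 25°C over 15°C, of FPKM + 0.5 for the 7 tested aquaporin genes, with the 95% interval for the values as deposited (line) and the same estimate after median-ratio scaling and with equal library sums; dashed lines mark 2-fold. aqp-4 lies at 0.98 as deposited and beyond 1 under both rescalings, and aqp-8 is lowest at -0.77.

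These counts were set against the whole table. By limma, 0 of the 7 tested aquaporins were called, against 12.5% of all tested genes, with 6.96% higher and 5.59% lower at 25°C. At an unadjusted p under 0.05 there were 4 of 7 (49.9% of all tested genes), and treat, the limma test against a 2-fold change, called 0 (1.25%). An adjusted p under 0.05 at any fold change was reached by aqp-4 and aqp-10, 2 of 7, against 39.5% of all tested genes, and one under 0.01 by aqp-4 alone, against 19.6%. In 5 of the 7 the 25°C and 15°C libraries were fully apart, aqp-1, aqp-4, aqp-8, aqp-10 and aqp-11, against 54.7% of all tested genes. The median log2 fold change was -0.22 for the 7 and -0.032 for all tested genes. For each of the 5 p was 0.10 by an exact two-sided permutation test, the lowest value that this design can reach, and for aqp-2 and aqp-7 it was 0.20.

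The 25°C libraries had the smaller FPKM sums, so other scales were tried. When all 6 libraries were given the same total (equal sums), the median over all tested genes shifted by 0.18 on the log2 scale, and among called genes the share higher at 25°C was 74.2% in place of 55.5%. aqp-4 then passed both thresholds (log2 fold change 1.16, adjusted p = 0.0047 from limma), as it did with median-ratio scaling (1.01, adjusted p = 0.0084) and after rescaling to TPM (1.15, adjusted p = 0.0043). Over 16 alternatives, treat left aside, its adjusted p ranged from 0.0043 to 0.036, and under treat it was 1.0. Relative to the median of all tested genes, aqp-4 stood at 1.01 as deposited and at 1.02 with equal sums, and aqp-8 at -0.74 and -0.73. aqp-1 and aqp-7 came to -0.032 and -0.091 with equal sums. aqp-10 came to 0.73 with equal sums (adjusted p = 0.0025 from limma), an estimate still under the fold threshold. With equal sums, aqp-1 and aqp-8 no longer lay apart between the temperatures. The 3 members that still did were aqp-4, aqp-10 and aqp-11, where 52.6% of all tested genes lay apart.

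The 8 aquaporins together summed to 1227, 1227 and 1261 FPKM at 25°C and to 1035, 1187 and 1192 FPKM at 15°C, a ratio of means of 1.09 (exact two-sided permutation test, p = 0.10). With equal sums the means were 1325 FPKM at 25°C and 1073 FPKM at 15°C, so the sum depends on the scaling. Because a common scaling factor cancels from ratios within a library, the members were also compared with each other. aqp-10 made up 40.8%, 32.2% and 35.3% of the aquaporin sum at 25°C and 29.0%, 27.9% and 23.8% at 15°C. aqp-4 made up 9.87%, 7.76% and 9.38% at 25°C and 4.07%, 5.91% and 4.97% at 15°C. aqp-8, in the other direction, made up 4.20%, 8.94% and 7.10% at 25°C and 12.3%, 9.90% and 14.3% at 15°C. The shares of 7 of the 8 genes, all but aqp-3, did not overlap between the temperatures. Shares that sum to a whole are not independent of each other, and no such count was made for other sets of genes, while the FPKM of 54.7% of all tested genes did not overlap.

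**Figure D3:**
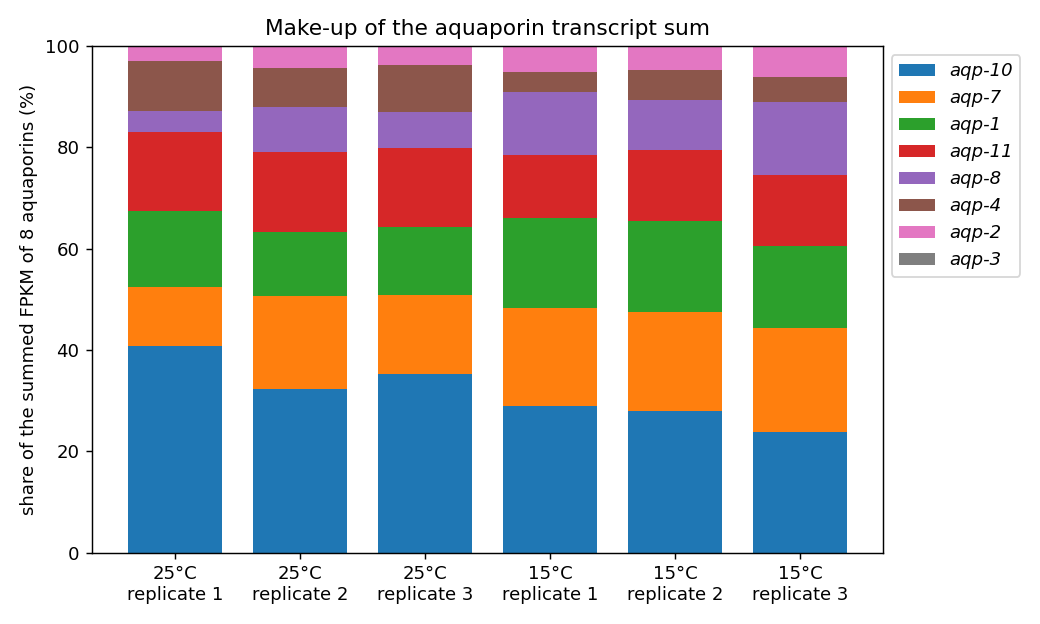
Share (%) of each aquaporin gene in the summed FPKM of all 8, in each library at 25°C and 15°C. The part of aqp-10 averages 36.1% at 25°C and 26.9% at 15°C, and that of aqp-8 averages 6.75% at 25°C and 12.2% at 15°C, while aqp-3 is too low to be seen.

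The order of the mean levels also differed. At 25°C it ran aqp-10, aqp-11, aqp-7, aqp-1, aqp-4, aqp-8, aqp-2, aqp-3, and at 15°C aqp-10, aqp-7, aqp-1, aqp-11, aqp-8, aqp-2, aqp-4, aqp-3. Only some of these neighbours were separated by the spread of their libraries. At 25°C the ranges of these neighbours overlapped for aqp-11 with aqp-7, aqp-7 with aqp-1, aqp-4 with aqp-8 and aqp-8 with aqp-2. At 15°C the same held for aqp-7 with aqp-1, for aqp-11 with aqp-8 and for aqp-2 with aqp-4. Within single libraries, aqp-8 was above aqp-2 in all 3 at 25°C, and aqp-7 above aqp-1 in all 3 at 15°C. The other overlapping neighbours changed order between libraries. aqp-10 stood clear at the top and aqp-3 at the bottom at both temperatures.

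The ratio of aqp-4 to aqp-8 was 2.35, 0.868 and 1.32 in the 25°C libraries, against 0.331, 0.597 and 0.348 in the 15°C libraries, without overlap. The difference was 1.77 on the log2 scale, the largest of the 21 pairs of tested members, and was picked out after all pairs had been seen. The ratio of aqp-1 to aqp-10 was tighter, with 0.366, 0.395 and 0.381 at 25°C and 0.614, 0.646 and 0.682 at 15°C. In all 12 pairs of a member higher and a member lower at 25°C the libraries did not overlap, which the split by direction favours, and they did not in 3 of the 9 pairs with the same direction, which were aqp-4 with aqp-10, aqp-4 with aqp-11 and aqp-7 with aqp-8. No pair could go below p = 0.10 by the exact permutation test.

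**Figure D4:**
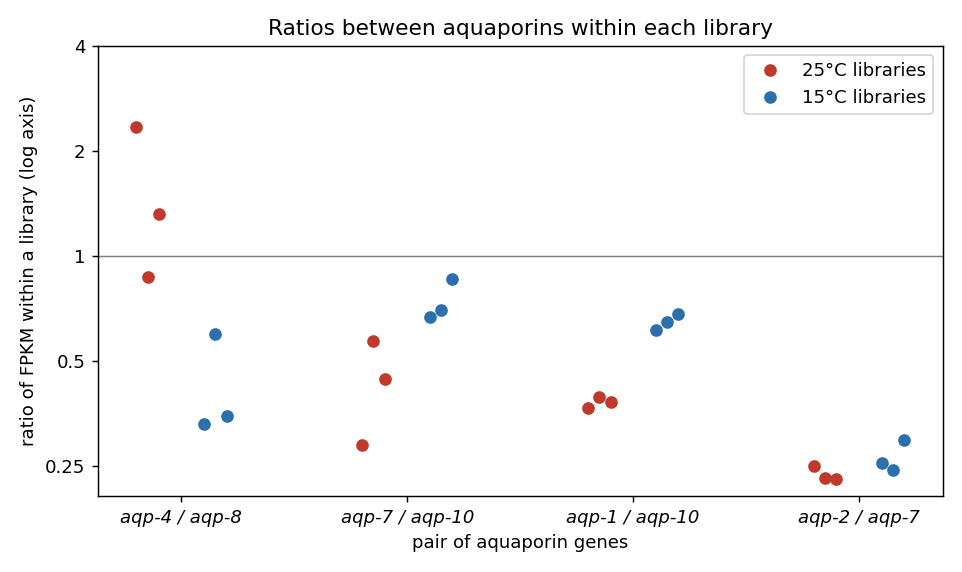
Ratio of the FPKM of a pair of aquaporin genes within each library (log axis) at 25°C (red) and 15°C (blue), for 4 pairs chosen after their values were seen. aqp-4 over aqp-8 lies between 0.868 and 2.35 at 25°C and between 0.331 and 0.597 at 15°C, while aqp-2 over aqp-7 stays between 0.230 and 0.296 in all 6 libraries.

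Libraries of one temperature also differed in a shared way. Among the 25°C libraries, replicate 1 was lowest and replicate 2 highest for aqp-2, aqp-7 and aqp-8, and the reverse held for aqp-4 and aqp-10. In these 5 of the 7 tested genes replicate 1 was thus farthest from the 15°C mean, as it was in 55% of all tested genes. Across all 6 libraries the ratio of aqp-2 to aqp-7 stayed between 0.230 and 0.296, although each of the 2 genes varied between libraries of one temperature. The mean correlation with the 15°C libraries was 0.904 for 25°C replicate 1, against 0.927 for replicate 2 and 0.918 for replicate 3, over log2 values of all tested genes. Its part in the aquaporin values is given by the estimates without it, which kept their direction in the 7 tested genes.

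Genes of the osmotic and glycerol response included some that were called. Of 12 genes, 10 were tested, with a median log2 fold change of 0.26. By limma, 3 were called higher (6.96% of all tested genes) and 0 lower (5.59%) at 25°C. At an unadjusted p under 0.05 there were 6 (49.9% of all tested genes), and treat called 0 (1.25%). gpdh-1, a glycerol-3-phosphate dehydrogenase that makes glycerol under hypertonic stress, was listed at 98.3, 104 and 109 FPKM at 25°C, against 45.1, 31.4 and 48.9 FPKM at 15°C. It rose at 25°C, with no overlap, by a log2 fold change of 1.32 (adjusted p = 0.0018 from limma). hmit-1.1, which encodes a proton-coupled myo-inositol transporter, rose by 1.98 (adjusted p = 0.0011 from limma), with 63.9, 82.2 and 80.2 FPKM at 25°C, against 14.2, 17.5 and 26.2 FPKM at 15°C. ptr-23, a patched-related gene that acts in the osmotic response set off by loss of osm-8, rose by 1.78 (adjusted p = 0.0011 from limma). The number called higher was 3 whichever single library was left out. wnk-1, a kinase gene of cell volume control, had the lowest value, -0.41 (adjusted p = 0.52 from limma), with 11.5, 13.6 and 40.8 FPKM at 25°C and 17.3, 33.7 and 26.6 FPKM at 15°C. osm-8 and osr-1 were below the filter.

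No gene of the excretory canal was called. Of 19 genes, 16 were tested, and limma called 0 (12.5% of all tested genes). At an unadjusted p under 0.05 there were 3 (49.9% of all tested genes), and treat called 0 (1.25%). The median log2 fold change was 0.073, and the log2 fold changes ran from -0.71 to 0.32. The lowest was that of exc-4, a chloride intracellular channel protein needed for canal tubulogenesis, with 12.9, 13.3 and 13.9 FPKM at 25°C and 24.0, 17.9 and 25.8 FPKM at 15°C. Its libraries did not overlap, but the fold was under the threshold (adjusted p = 0.013 from limma). The highest was that of pros-1, a homeobox gene of the canal, at 0.32 (adjusted p = 0.27 from limma). ceh-6, the POU homeobox gene known to regulate aqp-8 and named here after its values were seen, had 1.02, 2.35 and 0.909 FPKM at 25°C and 1.53, 1.298 and 1.67 FPKM at 15°C, with overlap and a log2 fold change of -0.13 (adjusted p = 0.78 from limma). The summed level of the list was 1457 to 1488 FPKM at 25°C and 1255 to 1387 FPKM at 15°C, while 9 of the 16 tested genes lay above 0. Its genes with high levels differed in direction. exc-9 averaged 553 FPKM at 25°C against 446 FPKM at 15°C, and ifc-2 averaged 252 FPKM at 25°C against 203 FPKM at 15°C. In contrast, ifb-1 averaged 222 FPKM at 25°C against 233 FPKM at 15°C, and ifa-4 averaged 145 FPKM at 25°C against 158 FPKM at 15°C. These genes were named after their values were seen. The part of canal content in the aqp-8 values was not tested.

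**Figure D5:**
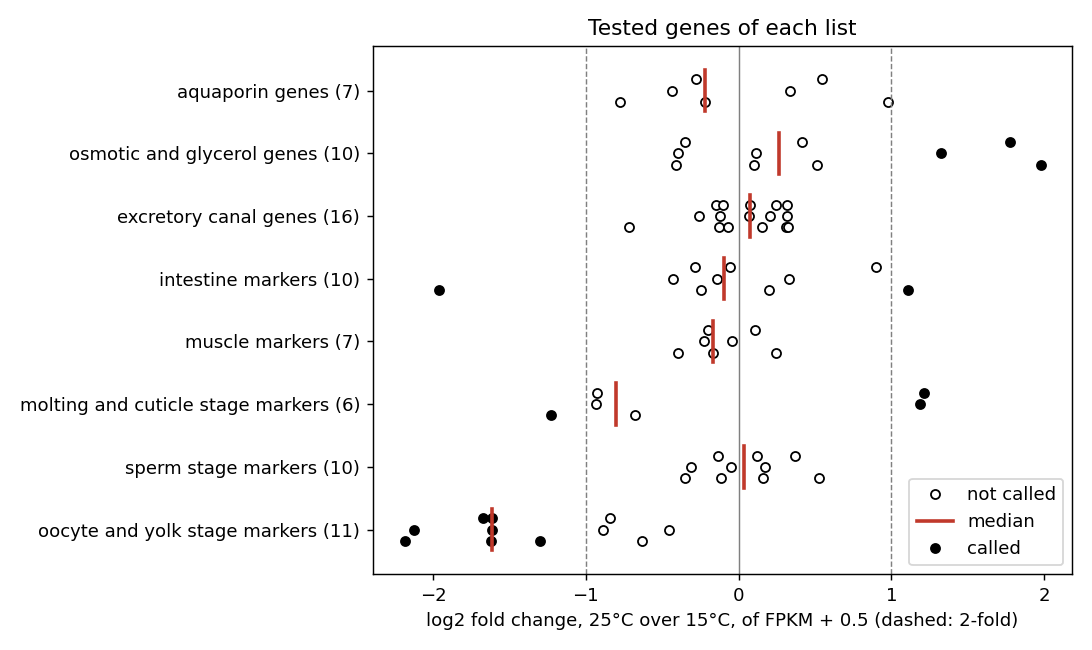
Log2 fold change, 25°C over 15°C, of FPKM + 0.5 for each tested gene of the aquaporins and 7 further lists, with the number tested in brackets, called genes filled, the median as a red bar and dashed lines at 2-fold. None of the 7 tested aquaporins is filled, and 3 of 10 osmotic and glycerol genes are, where 12.5% of all tested genes were called. The oocyte and yolk genes all lie below 0, with a median of -1.61.

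Markers of tissue and stage were read beside these values. Over all tested genes, limma called 6.96% higher and 5.59% lower at 25°C. An unadjusted p under 0.05 was reached by 49.9% of them, and treat called 1.25%. Of 10 intestine markers, limma called elt-7 higher (1.11) and cpr-1 lower (-1.96) at 25°C, with a median of -0.096. Of these markers 5 had an unadjusted p under 0.05 and 1 was called by treat. The list summed to 6419 to 6595 FPKM at 25°C and 6129 to 8478 FPKM at 15°C, none of its markers being at 0. Of 7 tested muscle markers, 0 were called by limma, 1 had an unadjusted p under 0.05 and 0 were called by treat. They lay between -0.39 for lev-11 and 0.25 for hlh-1, with sums of 2312 to 2700 FPKM at 25°C and 2919 to 3166 FPKM at 15°C. Of 10 sperm genes, 0 were called by limma, against 3 at an unadjusted p under 0.05 and 0 by treat, with values from -0.35 for msp-3 to 0.52 for spe-11 and sums of 2893 to 2990 FPKM at 25°C and 2447 to 3285 FPKM at 15°C. Oocyte and yolk genes differed most. Of 11 tested, limma called 7 lower at 25°C, vit-1, vit-4, vit-5, rme-2, oma-1, cbd-1 and egg-1, and the list summed to 1929 to 2345 FPKM at 25°C, against 3487 to 5695 FPKM at 15°C. Without 15°C replicate 1 the number lower was 2, but the median log2 fold change of the list was -1.66, against -1.61 with all libraries. Over all tested genes the number lower went from 726 to 287 without that library. In the oocyte and yolk list, 10 genes had an unadjusted p under 0.05 and treat called 0. cbd-1 was the lowest of the list at -2.19 and puf-5 the highest at -0.45. Of 6 tested molting and cuticle genes, limma called mlt-8 (1.19) and rol-6 (1.21) higher and noah-2 (-1.23) lower, with a median of -0.80 and sums of 53.0 to 55.9 FPKM at 25°C and 33.3 to 39.7 FPKM at 15°C. The call of noah-2 was lost without any single library. All 6 had an unadjusted p under 0.05, and treat called 0. Oocyte and yolk markers were thus lower at 25°C, molting genes were called in both directions and no sperm gene was called. The part of these markers in the aquaporin values was not tested.

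Since no aquaporin was called, the genes most like the one with the largest difference, aqp-4, were looked up over the 6 libraries. Likeness was the Euclidean distance between log2(FPKM + 0.5) values centred on each gene's mean. W08E12.8 was nearest at 0.147, followed by nhr-8, a nuclear hormone receptor gene, at 0.180 and F31D5.1 at 0.204. nhr-8 had 67.8, 53.6 and 61.2 FPKM at 25°C, against 22.9, 34.3 and 30.2 FPKM at 15°C. All 25°C libraries lay above all 15°C libraries, a pattern that the choice by likeness to aqp-4 fixes.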

How the data were processed

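RNA-seq libraries of whole L4 worms, 3 at 25°C and 3 at 15°C, were grouped by their titles. The authors aligned reads to WBcel235 with TopHat2 2.0.6, used the Cufflinks tools and deposited 1 FPKM value per gene and library. The mRNA kit kept strand. Whether strand was used in counting, and any filters and the annotation used before deposit, were not given in the sources used. Coordinates are from the Ensembl annotation (release 115) of the same build.

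Values were used as deposited. limma 3.58.1 (R 4.3.3) with an intensity trend was fitted to log2(FPKM + 0.5) of the 12996 genes averaging 1 FPKM or more, with no covariate. A call needed an adjusted p under 0.01 and more than a 2-fold difference. Exact permutation tests used scipy 1.17.1. The fit was tested on simulated data. Alternatives were pseudocounts of 0.1 and 1, no filter or a mean of 5 FPKM, 3 rescalings, an adjusted p under 0.05, no trend, treat, a replicate block and each library left out.

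The members and lists were chosen with earlier results of these data known. Named were the 8 members and, of each list, the called genes and the largest value each way. Exceptions are marked.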

Additional observations from a re-analysis of the deposited data

How the results depend on the processing

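The number of aquaporin genes called higher was 0 as deposited and 1, aqp-4, with median-ratio scaling, rescaling to TPM and equal sums (log2 fold changes of 1.01, 1.15 and 1.16). The number called lower was 0 under every alternative run. The median of the tested aquaporins was nearer to 0 with TPM (-0.031) and equal sums (-0.032). Without 1 library the log2 fold changes ranged from 0.78 to 1.14 for aqp-4, 0.46 to 0.63 for aqp-10, 0.21 to 0.40 for aqp-11, -0.27 to -0.16 for aqp-1, -0.55 to -0.29 for aqp-2, -0.42 to -0.093 for aqp-7 and -1.0 to -0.46 for aqp-8, and none was called. Only the untested aqp-3 changed sign (-0.38 to 0.031). Of all tested genes, 904 were called higher and 726 lower. Treat called 137 and 26, the replicate block 597 and 406, and the number lower was 395 with TPM and 422 with equal sums. Without 1 library 569 to 794 were higher and 287 to 824 lower. Replicate numbers mark nothing shared in the labels, and same-numbered libraries deviated together with correlations of -0.035, -0.10 and -0.050 over the tested genes. With the replicate block, aqp-4 had an adjusted p of 0.029 and 0 aquaporins were called.

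Treat called 0 osmotic, 0 intestine and 0 molting genes higher. It called 0 molting and 0 oocyte genes lower, and still called 1 intestine marker lower. Intestine markers called higher numbered 2 with TPM and with equal sums, and 0 to 2 without 1 library. Molting genes called higher numbered 1 with the replicate block and 1 to 2 without 1 library, and those called lower were 0 at either pseudocount, with a mean of at least 5 FPKM, TPM, equal sums, the replicate block or any library left out. The median of the molting genes, -0.80, was 1.19 with a mean of at least 5 FPKM, where few of the genes were left and the median was the value of mlt-8. Oocyte genes called lower numbered 2 to 7 without 1 library. Apart from what the construction of treat and the smaller number of libraries imply, the cause was not tested. Depth is unknown, and with 3 libraries each the interval of aqp-8 spans 1.33 on the log2 scale.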

Other observations

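The table holds 4 further genes with an aqp symbol. aqp-9 had 44.3, 35.5 and 33.3 FPKM at 25°C, against 38.1, 34.3 and 32.9 FPKM at 15°C, with overlap and a log2 fold change of 0.094 (adjusted p = 0.63 from limma). aqp-6 had 3.59, 6.04 and 3.29 FPKM at 25°C and 2.99, 1.73 and 1.84 FPKM at 15°C, without overlap, at a log2 fold change of 0.83 (adjusted p = 0.059 from limma). aqp-5 averaged 1.59 ± 0.425 FPKM in the 25°C libraries and 1.18 ± 0.368 FPKM in those of 15°C (SD, n = 3 each). aqp-12 was listed at 0 in 4 of the 6 libraries and had 0.41 FPKM in 25°C replicate 3 and 0.36 FPKM in 15°C replicate 3.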
